A study of Mus musculus with 6 samples.

Results

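The 10 genes described here encode the mouse Fc gamma receptors (Fcgr1, Fcgr2b, Fcgr3 and Fcgr4), the adaptor chains Fcer1g and Tyrobp, and 4 further surface receptors of myeloid cells, Pirb, Lilrb4a, Sirpa and Trem1. They were picked by symbol when earlier results of these data were already known, so the counts below describe these genes and no random draw, and all 10 were found among the 27179 genes of the deposited expression table. RNA was measured in YFP+Mac-1+c-Kit+ leukemia-initiating cells (LICs) sorted from bone marrow in a mouse model of acute myeloid leukemia. Fetal liver cells of Asic3+/+ (WT) or Asic3-/- (Asic3-null) mice had been given the MLL-AF9 fusion on a retrovirus that also carries YFP, and the leukemia was grown in lethally irradiated C57BL/6 recipients. There were 3 libraries labelled WT and 3 labelled Asic3-null, all of the C57BL/6 strain with an age of 8 weeks, and the labels name no agent given to either group. Every library therefore carried MLL-AF9, and the groups differed in the labelled germline genotype. Nothing in the labels says whether the 3 libraries of a group came from separate primary leukemias, so p values measure the spread between these libraries.

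Fc gamma receptors bind the constant part of IgG, and the other receptors here bind ligands on cells or in the surrounding fluid. Activating receptors signal through an immunoreceptor tyrosine-based activation motif (ITAM), which Src family kinases phosphorylate and Syk then binds. Fcgr1, Fcgr3 and Fcgr4 borrow the ITAM of the Fc receptor gamma chain, encoded by Fcer1g, and Trem1 borrows that of DAP12, encoded by Tyrobp. Inhibitory receptors carry an immunoreceptor tyrosine-based inhibitory motif (ITIM) in their own tails, to which the phosphatases SHP-1 (Ptpn6), SHP-2 (Ptpn11) and SHIP-1 (Inpp5d) bind. Fcgr2b, Pirb, Lilrb4a and Sirpa are of this kind, and myeloid cells commonly express both kinds, with the ITIM receptors setting a threshold for the ITAM receptors. The 6 genes of the activating machinery are called the ITAM side here and the other 4 the ITIM side. Antibodies to CD16/32 recognise the products of Fcgr3 and Fcgr2b and are widely used to gate granulocyte-macrophage progenitors, but the cells sequenced here were sorted on Mac-1 and c-Kit.

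The 2 kinds of motif are shown because they divide the genes into the groups that are compared. Each stretch is the coding sequence over the motif, read 5′ to 3′ on the gene's own strand from the GENCODE M21 transcripts of GRCm38, with the codons of the motif tyrosines in capitals. The ITAMs lie at chr1:171229889-171230072 on the minus strand (Fcer1g) and chr7:30415670-30417382 on the plus strand (Tyrobp), and both are split by an intron.
Fcer1g ITAM: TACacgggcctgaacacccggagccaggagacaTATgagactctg
Tyrobp ITAM: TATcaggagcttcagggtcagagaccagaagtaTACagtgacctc

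The ITIM side has 1 such motif in Fcgr2b, 3 in Pirb, 2 in Lilrb4a and 3 in Sirpa, each after the last hydrophobic stretch of the coding sequence. The 1 motif of Fcgr2b (chr1:170961071-170961088, minus strand) is shown beside the 3 of Pirb (chr7:3713862-3714103, where an intron splits the motif, chr7:3712786-3712803 and chr7:3712696-3712713, minus strand), since these genes stand at opposite ends of the results below. The 2 of Lilrb4a (chr10:51496021-51496038 and chr10:51496194-51496211, plus strand) follow.
Fcgr2b ITIM: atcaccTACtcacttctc
Pirb ITIM, nearest the membrane: agcctaTATgcttcagtg
Pirb ITIM, middle: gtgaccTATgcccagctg
Pirb ITIM, nearest the end: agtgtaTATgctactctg
Lilrb4a ITIM, nearest the membrane: attgtcTACgcccaggta
Lilrb4a ITIM, nearest the end: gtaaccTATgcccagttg

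The search used a tyrosine, 2 residues and a leucine or isoleucine, 6 to 8 residues, and the same again for the ITAM, and an isoleucine, valine, leucine or serine 2 places before a tyrosine with a leucine, valine or isoleucine 3 places after it for the ITIM. Fcgr1, Fcgr3, Fcgr4 and Trem1 held neither pattern. Their tails after the hydrophobic stretch were 84, 26, 27 and 7 codons long, against 178 in Pirb, 117 in Sirpa, 89 in Fcgr2b and 78 in Lilrb4a. The ITIM pattern also matched once in Tyrobp, at codons 90 to 95 of 114, where it overlaps the ITAM. A match is a description of the letters and not of a working site.

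Before the comparison, the labels were checked. The targeted gene ran against them, since Asic3 had 9.12, 4.11 and 6.58 RPKM in the Asic3-null-labelled libraries and 1.22, 1.85 and 0.435 RPKM in the WT-labelled ones. RPKM is the number of reads scaled to gene length and library size. The values are per gene, so they do not show whether the deleted part was transcribed. Xist lay between 46.5 and 71.9 RPKM in the Asic3-null-labelled libraries and at or under 0.0573 RPKM in the WT-labelled ones, while Ddx3y, Kdm5d, Uty and Eif2s3y were at 0 in every library labelled Asic3-null and above 0 in every library labelled WT. Labelled genotype and sex of the cells cannot be told apart, and all directions below are by label. The library sizes recovered from the values ran from 1947168 to 2381861 reads, so precision is limited by counting for the genes at a few RPKM. Itgam, the gene of the sort marker Mac-1, was present in all libraries but lower in the Asic3-null-labelled ones, with 12.9, 12.3 and 16.9 against 89.5, 85.7 and 55.1 RPKM (log2 fold change -2.35, limma adjusted p = 0.00072). Itgb2, whose product is the partner chain of Mac-1, was lower too, with 70.0, 70.4 and 96.3 against 167, 173 and 128 RPKM (log2 fold change -0.98, limma adjusted p = 0.0188). Kit, the gene of the other sort marker, had 14.4, 17.9 and 20.4 against 9.09, 15.3 and 8.97 RPKM and was not called (limma adjusted p = 0.219). All 10 tested genes of the mature neutrophil list were lower in the Asic3-null-labelled libraries. The 11 genes of the list summed to 239 to 375 RPKM in those libraries and to 3898 to 4340 RPKM in the WT-labelled ones, and Ly6g was at 0 in all but 1 library. Of the macrophage list, Adgre1 was called lower among 4 tested genes, and the 8 genes summed to 132 to 174 RPKM against 202 to 236 RPKM. In the mast cell and basophil list neither of the 2 tested genes was called, Fcer1a, Prss34, Tpsb2 and Mcpt4 were at 0 in all libraries, and the 7 genes summed to 115 to 127 RPKM against 57.4 to 128 RPKM. The 1 tested gene of the NK cell, B cell, T cell and erythroid lists each was not called. Defining markers of NK cells (Ncr1, Klrb1c, Gzma and Prf1), B cells (Ms4a1) and T cells (Cd3e, Cd4 and Cd8a) were at 0 in all 6 libraries, but other genes of these lists were not. The NK cell list summed to 7.55 to 17.3 RPKM in the Asic3-null-labelled libraries against 11.1 to 19.1 RPKM, nearly all of it Nkg7. The B cell list summed to 37.4 to 47.8 RPKM against 43.4 to 50.5 RPKM, nearly all of it Cd79b. The T cell list summed to 1.32 to 4.17 RPKM against 1.83 to 3.74 RPKM, mostly Cd247.

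Of the 9 genes that could be tested, Pirb, Lilrb4a, Fcgr4 and Fcer1g were lower in the Asic3-null-labelled libraries and none was higher. The mean RPKM was 9.61-fold lower for Pirb, 5.10-fold for Lilrb4a, 4.05-fold for Fcgr4 and 1.57-fold for Fcer1g. Fcgr2b, the inhibitory Fc gamma receptor, lay at nearly the same level in both groups. A gene was called at an adjusted p under 0.05 in limma's moderated test on log2(RPKM + 1), fitted over all 12037 genes with a mean of at least 1 RPKM. Of these, 3.35% were called in either direction and 2.82% were called lower. The groups did not overlap for 5 of the 9 members, the 4 called genes and Tyrobp, all with the libraries labelled Asic3-null below, against 11.4% of all tested genes lower in this way. The log2 fold change was negative for 9 of 9, with a median of -0.65, against 45.5% negative and a median of 0.03 over all tested genes. Without Asic3-null replicate 2, WT replicate 1 or WT replicate 2, 2 members were called, Pirb and Lilrb4a. In bulk RNA, fewer cells with a transcript and less of it per cell cannot be told apart. The lower levels of the members moved with the lower neutrophil list and with lower Itgam, and the part of these in the members' results was not tested.

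**Figure D1:**
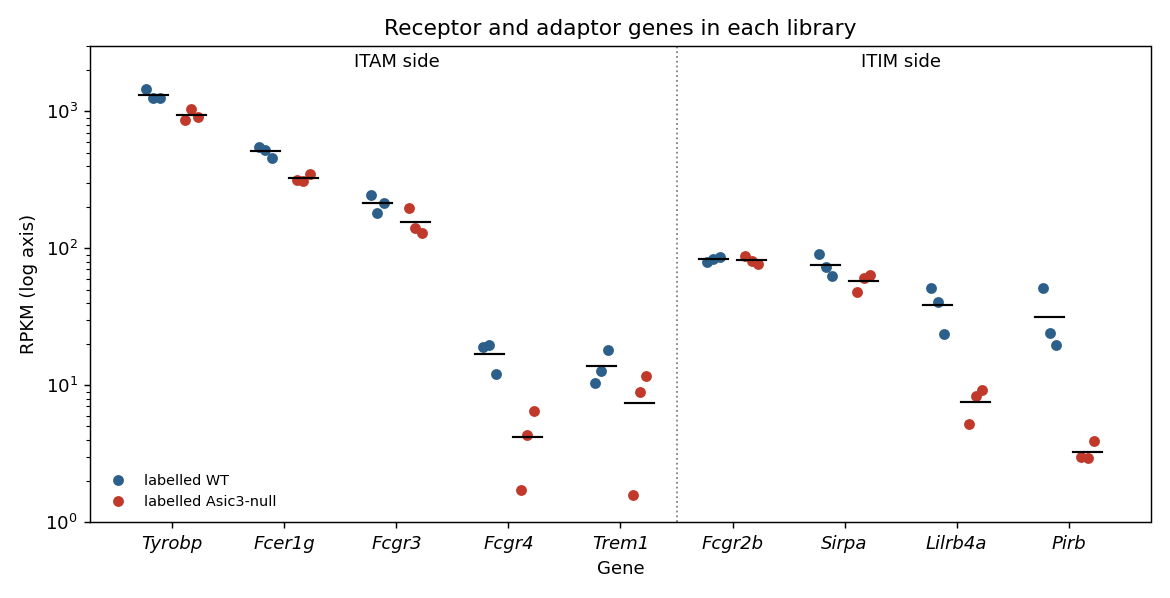
RPKM on a log axis for the 9 tested genes in each of the 6 libraries, with WT in blue, Asic3-null in red and a bar at each group mean (n = 3 each). The groups lie apart for Tyrobp, Fcer1g, Fcgr4, Lilrb4a and Pirb and overlap for Fcgr3, Trem1, Fcgr2b and Sirpa.

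The levels of the genes spanned a wide range, and their upper order was the same in both groups. Tyrobp had the highest RPKM, followed by Fcer1g, Fcgr3, Fcgr2b, Sirpa and Lilrb4a. From Tyrobp to Fcgr2b, neighbours in this order did not overlap within either group, whereas Fcgr2b and Sirpa overlapped in the WT-labelled libraries and not in the Asic3-null-labelled ones. Below Sirpa the order in the WT-labelled libraries was Lilrb4a, Pirb, Fcgr4 and Trem1, with overlap between each pair of neighbours. In those labelled Asic3-null it was Lilrb4a, Trem1, Fcgr4 and Pirb, again with overlap between neighbours, and Pirb moved from rank 7 to rank 9. Fcgr1 was last in both.

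On the ITAM side, the adaptor chains were by far the most abundant. Tyrobp (Entrez 22177, chr7:30413782-30417582), whose product DAP12 is the partner of Trem1 and of many other receptors, had 858, 1047 and 910 RPKM in the Asic3-null-labelled libraries and 1458, 1246 and 1259 RPKM in the WT-labelled ones. Each library labelled Asic3-null was below each labelled WT, yet the gene was not called (log2 fold change -0.49, SE 0.12, limma adjusted p = 0.071). Fcer1g (Entrez 14127, chr1:171229572-171234349) had 317, 309 and 348 RPKM against 551, 520 and 459 RPKM, again without overlap. It was called, with means of 325 ± 20.5 and 510 ± 47.0 RPKM (SD, n = 3 each) and a log2 fold change of -0.65 (SE 0.12, limma adjusted p = 0.0198). That call did not hold when any of 5 libraries was left out: the limma adjusted p was 0.0793, 0.0651 and 0.0529 without Asic3-null replicate 1, 2 or 3, and 0.0743 and 0.0738 without WT replicate 1 or 2. The ratio of Tyrobp to Fcer1g was 2.71, 3.38 and 2.61 in the Asic3-null-labelled libraries and 2.64, 2.40 and 2.74 in the WT-labelled ones, so the groups overlapped in the balance of the 2 adaptors.

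The activating Fc gamma receptors covered a large span. Fcgr3 (Entrez 14131, chr1:171051169-171065915), the low-affinity receptor that pairs with the Fc receptor gamma chain, had 197, 140 and 129 RPKM against 246, 181 and 214 RPKM. The highest library labelled Asic3-null exceeded the lowest labelled WT, and the gene was not called (log2 fold change -0.47, SE 0.18, limma adjusted p = 0.249). Fcgr4 (Entrez 246256, chr1:171018926-171029761), a receptor of higher affinity for some IgG subclasses, had 1.73, 4.37 and 6.47 RPKM against 19.0, 19.7 and 12.2 RPKM. These rest on 5, 13 and 19 reads in the Asic3-null-labelled libraries and on 50, 48 and 36 in the WT-labelled ones. The groups lay apart and the gene was called (log2 fold change -1.88, SE 0.36, limma adjusted p = 0.0258). That call did not hold without Asic3-null replicate 2 or WT replicate 1 or 2, where the limma adjusted p was 0.0687, 0.103 and 0.0909. Fcgr1 (Entrez 14129, chr3:96282909-96293969), the high-affinity receptor, had 1 read in WT replicate 1 and 0 reads in the other 5 libraries. With 3 reads as the limit that a count of 0 allows, its level was under 0.486 to 0.595 RPKM in each of those 5 libraries, and no difference could be seen at this depth. These limits, like the reads, cover counting error only.

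Trem1 (Entrez 58217, chr17:48232713-48246927), a receptor that amplifies inflammatory responses in neutrophils and monocytes, had 1.58, 8.94 and 11.6 RPKM against 10.4, 12.6 and 18.1 RPKM. Asic3-null replicate 1, with 11 reads, stood well below the other 2 libraries of its group, which had 64 and 82. The groups overlapped and the gene was not called (log2 fold change -1.07, SE 0.52, limma adjusted p = 0.362). Without Asic3-null replicate 1 its log2 fold change was the least negative of the 6 fits that each left a library out, at -0.36, against -1.51 at the other end.

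On the ITIM side, Pirb and Lilrb4a were called and Fcgr2b and Sirpa, the genes with the higher levels, were not. Pirb (Entrez 18733, chr7:3712505-3720382), the paired immunoglobulin-like receptor that binds MHC class I and restrains myeloid and B cell activation, had 3.01, 2.92 and 3.90 RPKM against 50.9, 24.1 and 19.5 RPKM. It rested on 19, 19 and 25 reads against 292, 128 and 126. The lowest library labelled WT, at 19.5 RPKM, was above the highest labelled Asic3-null, at 3.90 RPKM, with averages of 3.28 ± 0.542 and 31.5 ± 17.0 RPKM (SD, n = 3 each). The log2 fold change was -2.81 (SE 0.32, limma adjusted p = 0.00221), the most negative of the members.

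Lilrb4a (Entrez 14728, chr10:51490898-51496613), also known as gp49B, an inhibitory receptor of mast cells and myeloid cells, had 5.17, 8.28 and 9.30 RPKM against 51.6, 40.9 and 23.5 RPKM. The reads were 17, 28 and 31 against 154, 113 and 79. The groups lay apart, with means of 7.58 ± 2.15 and 38.6 ± 14.2 RPKM (SD, n = 3 each) and a log2 fold change of -2.17 (SE 0.30, limma adjusted p = 0.00597). Pirb and Lilrb4a were called in all 14 alternative fits.

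Fcgr2b (Entrez 14130, chr1:170960558-170976071), the only inhibitory Fc gamma receptor, had 87.1, 81.1 and 77.4 RPKM against 79.6, 83.7 and 86.6 RPKM. The libraries of the groups were interleaved, with averages of 81.9 ± 4.92 and 83.3 ± 3.48 RPKM (SD, n = 3 each). Its log2 fold change was -0.03 with a 95% interval from -0.29 to 0.24 (limma adjusted p = 0.942), and its sign was not fixed, being positive in 3 of the 14 alternative fits. Sirpa (Entrez 19261, chr2:129591042-129632228), the macrophage and neutrophil receptor for the CD47 signal that limits phagocytosis, had 48.1, 60.6 and 64.0 RPKM against 91.1, 72.9 and 62.6 RPKM. Those ranges overlapped and Sirpa was not called (log2 fold change -0.38, SE 0.17, limma adjusted p = 0.332).

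**Figure D2:**
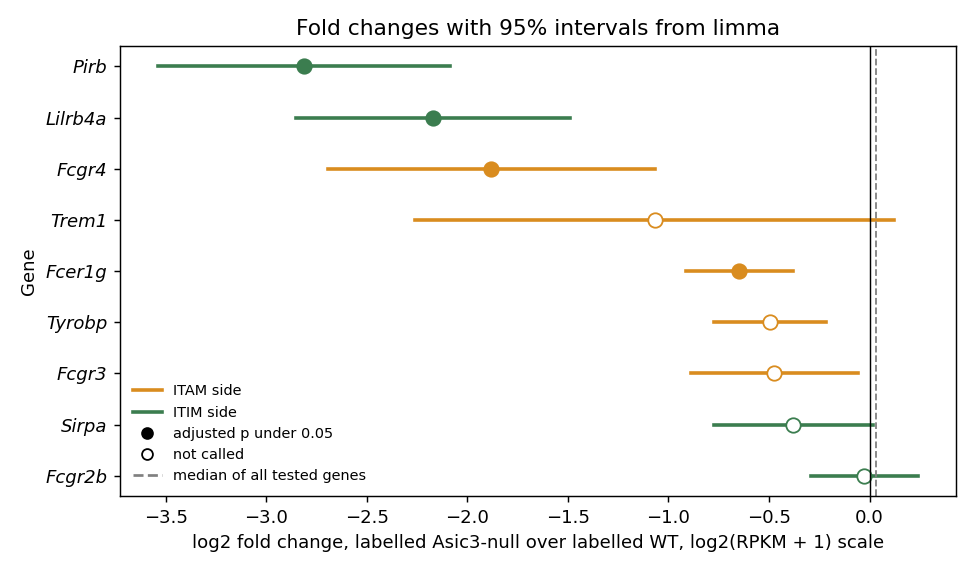
Log2 fold change of the libraries labelled Asic3-null over those labelled WT on the log2(RPKM + 1) scale (points) with 95% intervals from limma (lines), for the ITAM side in orange and the ITIM side in green. Filled points had an adjusted p under 0.05, and the dashed line marks the median of all tested genes, 0.03. Pirb is the most negative at -2.81, and Fcgr2b at -0.03 is the nearest to 0.

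Set side by side, 2 of 5 tested genes were called lower on the ITAM side and 2 of 4 on the ITIM side, against 2.82% of all tested genes. Both ITAM-side calls were lost without Asic3-null replicate 2, WT replicate 1 or WT replicate 2, in fits of 5 libraries that called fewer genes in all. The log2 fold changes moved little in these fits, to -1.96, -1.79 and -1.76 for Fcgr4 and to -0.61, -0.59 and -0.63 for Fcer1g. The median log2 fold change was -0.65 on the ITAM side, over a range from -1.88 to -0.47. On the ITIM side it was -1.28, over a range from -2.81 to -0.03. The ranges overlap, and the wider spread of the ITIM side comes from Pirb and Lilrb4a on the one hand and Fcgr2b and Sirpa on the other. The difference between the sides was not tested. Summed over each side, the ITAM genes had 1376 to 1509 RPKM in the Asic3-null-labelled libraries and 1963 to 2286 RPKM in the WT-labelled ones, and the ITIM genes had 143 to 155 RPKM and 192 to 273 RPKM.

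The balance of activating to inhibitory Fc gamma receptors was read within each library, where scaling between libraries cancels. The RPKM of Fcgr1, Fcgr3 and Fcgr4 together, divided by that of Fcgr2b, was 2.28, 1.77 and 1.75 in the Asic3-null-labelled libraries and 3.33, 2.40 and 2.62 in the WT-labelled ones. The groups did not overlap, with means of 1.93 ± 0.300 and 2.78 ± 0.487 (SD, n = 3 each), and 3 libraries against 3 cannot give a two-sided exact permutation p under 0.1. The ratio of Fcgr3 to Fcgr2b alone did overlap, at 2.26, 1.72 and 1.66 against 3.09, 2.16 and 2.48. The ratio of Fcgr4 to Fcgr2b did not, at 0.0198, 0.0538 and 0.0837 against 0.239, 0.236 and 0.141. Fcgr2b made up 30.5%, 36.0% and 36.4% of the Fc gamma receptor RPKM in the Asic3-null-labelled libraries and 23.1%, 29.4% and 27.6% in the WT-labelled ones.

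**Figure D3:**
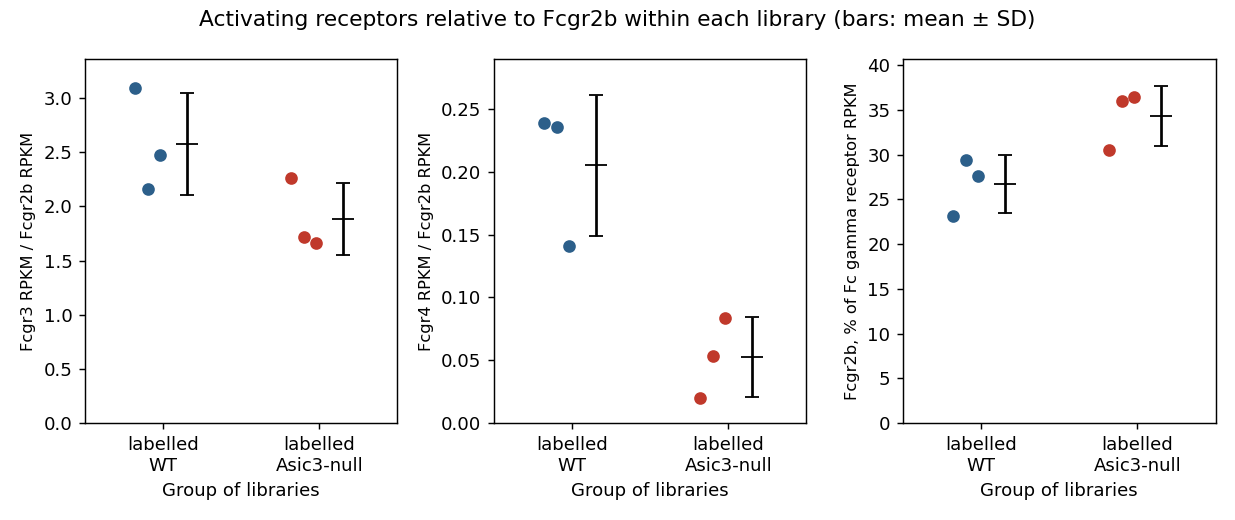
RPKM ratios within each library (points) with the mean and SD of each group beside them (n = 3 each): Fcgr3 over Fcgr2b, Fcgr4 over Fcgr2b, and Fcgr2b as a percentage of the summed RPKM of the 4 Fc gamma receptors. Fcgr3 over Fcgr2b overlaps between the groups, while the other panels do not overlap.

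The inhibitory receptors have close relatives that lack ITIMs, and those of Pirb and Lilrb4a lie on the same chromosome. Of these, Lilra6, Lilr4b, Sirpb1a, Sirpb1b and Sirpb1c were called lower and Pira2 was not called. The activating PIR-A genes listed here, Pira1, Pira2 and Lilra6, all lie on the same side of Pirb. Lilra6 had 0.168, 0.489 and 0.165 RPKM against 4.80, 5.18 and 2.62 RPKM and was called (log2 fold change -2.00, limma adjusted p = 0.00983), although not without WT replicate 1 (limma adjusted p = 0.0515). Pira2 averaged 0.370 ± 0.128 against 3.87 ± 2.73 RPKM (SD, n = 3 each), without overlap, and was not called (limma adjusted p = 0.0523). Pira1 was under the expression minimum. Pira1, Pira2 and Lilra6 together had 0.807 ± 0.251 RPKM in the Asic3-null-labelled libraries and 9.80 ± 4.62 RPKM in the WT-labelled ones (SD, n = 3 each), without overlap. The ratio of Pirb to their sum was 4.51, 2.67 and 5.93 against 3.53, 2.46 and 3.76, with overlap.

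Lilr4b, the neighbour of Lilrb4a that has no ITIM, had 3.64, 3.86 and 4.57 RPKM against 29.5, 24.0 and 11.3 RPKM. It was called (log2 fold change -2.08, SE 0.31, limma adjusted p = 0.00904), and the ratio of Lilrb4a to Lilr4b was 1.87 ± 0.390 against 1.84 ± 0.203 (SD, n = 3 each). Sirpb1a, Sirpb1b and Sirpb1c, activating relatives of Sirpa that pair with DAP12, summed to 0.928, 2.05 and 0.877 RPKM against 17.2, 15.2 and 6.98 RPKM. All 3 genes were called, Sirpb1a with a log2 fold change of -2.14 (limma adjusted p = 0.0125), a call that did not hold without Asic3-null replicate 3 or WT replicate 1 or 2 (limma adjusted p = 0.0529, 0.0607 and 0.0568). Lilra6, Pira2, Sirpb1a, Sirpb1b and Sirpb1c were under 1 RPKM in every library labelled Asic3-null and met the minimum for testing through the WT-labelled ones, so their calls are no separate evidence of a direction. Sirpa itself was not called, and the difference between its fold change and theirs was not tested.

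**Figure D4:**
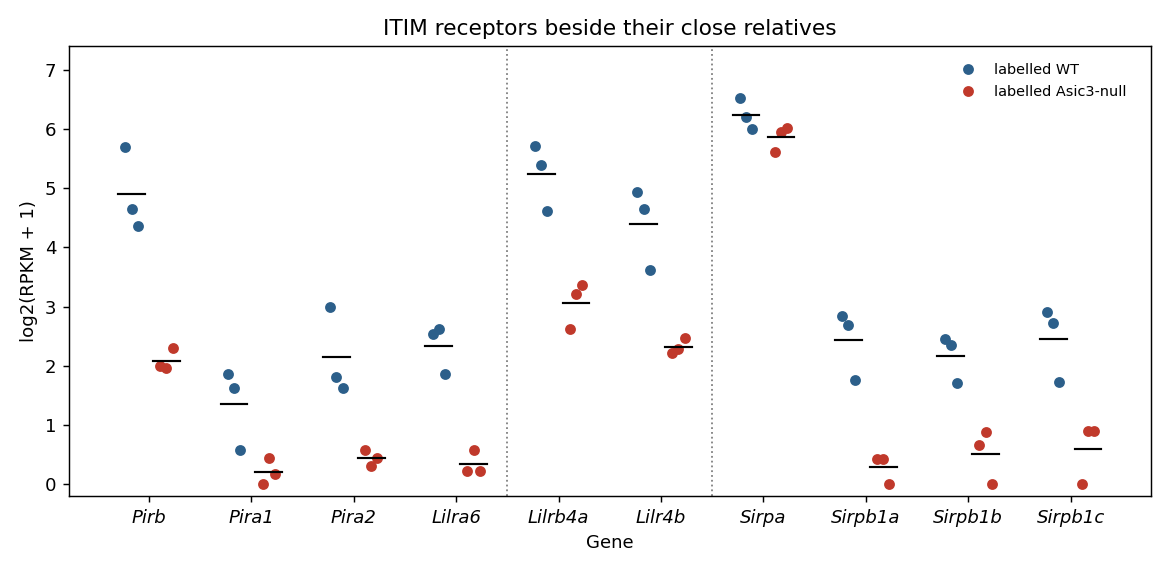
Log2(RPKM + 1) in each library of the ITIM receptors Pirb, Lilrb4a and Sirpa beside their close relatives, with WT in blue, Asic3-null in red and a bar at each group mean (n = 3 each). Pirb, Lilrb4a and their relatives lie apart between the groups, while Sirpa overlaps and Sirpb1a, Sirpb1b and Sirpb1c do not.

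Shared sequence limits how well reads can be assigned among these relatives, and the sources used here do not say how reads with several matches were counted. Of all windows of 50 bases in the GENCODE M21 transcript, 33.4% of Pirb occurred in another gene of the table, most often Gm14548. For Lilrb4a the share was 27.8%, all with Lilr4b. It was 45.3% for Pira2, 38.0% for Lilra6, and 44.2%, 67.4% and 72.6% for Sirpb1a, Sirpb1b and Sirpb1c. Among the Fc gamma receptors it was 12.8% for Fcgr3, all with Fcgr2b, and 10.8% for Fcgr2b. No window of Fcgr1, Fcgr4, Fcer1g, Tyrobp, Sirpa or Trem1 was shared. The count covers windows of 50 bases alone, so it does not exclude reads with several matches for these genes. Values of Pirb against PIR-A genes, and of Lilrb4a against Lilr4b, are uncertain.

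Beyond the members, 14 of 35 other receptors of both kinds that could be tested were called lower, as were 5 of 43 proteins that carry their signals, against 2.82% of all tested genes, and the difference between these shares was not tested. With any 1 of the 6 libraries left out, 1 or 2 of the 43 were called. Of the 14, 5 averaged under 1 RPKM in the Asic3-null-labelled libraries and met the minimum for testing through the WT-labelled ones alone, so the counts and medians of the receptor lists are a description and support no direction. The lower neutrophil list and lower Itgam given above moved with these genes too, and their part was not tested. The count of called genes over all 6 lists, 20 of 87 tested, fell to between 8 and 11 when Asic3-null replicate 1, 2 or 3 or WT replicate 1 or 2 was left out. For the list of other activating receptors, pairing with an ITAM adaptor was not checked gene by gene, Clec7a and Lilr4b included. Of its 20 tested genes, 9 were called lower and none higher, with a median log2 fold change of -1.33. Of these 9, 4 met the minimum through the WT-labelled libraries alone, and 3 genes of the list were called with a minimum mean of 5 RPKM. The count was 3 to 5 without Asic3-null replicate 1, 2 or 3 or WT replicate 1 or 2. Besides the relatives above, these included Pilrb1, with 1.27, 2.06 and 0.835 RPKM against 8.39, 5.54 and 7.04 RPKM (log2 fold change -1.76, limma adjusted p = 0.00983). Clec4e, the C-type lectin Mincle that senses mycobacterial glycolipids, was another, with 4.12, 5.50 and 6.76 RPKM against 21.9, 15.1 and 13.2 RPKM (log2 fold change -1.45, limma adjusted p = 0.0138). Of 15 tested other receptors with ITIMs, 5 were called lower and none higher, with a median of -0.76, and 3 were called without Asic3-null replicate 1 or 3 or WT replicate 1. The most negative was Cd300lf, a receptor for phospholipids, with 3.90, 3.56 and 3.61 RPKM against 54.5, 25.6 and 28.0 RPKM (log2 fold change -2.90, limma adjusted p = 0.000836).

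The other 4 called ITIM receptors were Pilra, the inhibitory partner of Pilrb1, Clec4a2, and the sialic acid receptors Siglece and Siglecg. Their log2 fold changes were -1.82 for Pilra, -1.35 for Clec4a2, -1.66 for Siglece and -1.57 for Siglecg. Cd300lf and Pilra were called in every alternative fit. Clec4a2 lost its call without Asic3-null replicate 1 or 3 (limma adjusted p = 0.05 and 0.0552), and Siglece lost its call without WT replicate 1 (limma adjusted p = 0.0598). Siglecg, under 1 RPKM on average in the Asic3-null-labelled libraries, lost its call without any of 5 libraries, where the limma adjusted p was 0.0847, 0.105 and 0.0862 without Asic3-null replicate 1, 2 or 3 and 0.128 and 0.12 without WT replicate 1 or 2.

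Among the proteins downstream of ITAMs, 3 of 30 tested genes were called lower, and the median log2 fold change was -0.18. Fgr, a Src family kinase, had 1.03, 1.63 and 1.14 RPKM against 15.0, 9.80 and 7.18 RPKM (log2 fold change -2.32, limma adjusted p = 0.00302). Lyn, which phosphorylates both ITAMs and ITIMs, had 31.5, 27.0 and 35.1 RPKM against 60.1, 49.6 and 51.2 RPKM (log2 fold change -0.77, limma adjusted p = 0.0287). Fgr was called in every alternative fit, but Lyn lost its call whichever library was left out, with a limma adjusted p from 0.0572 to 0.102. Syk, the kinase that docks on phosphorylated ITAMs, had 70.8, 61.3 and 77.6 RPKM against 81.9, 85.2 and 73.8 RPKM, with overlap (log2 fold change -0.20, limma adjusted p = 0.506).

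For the list of proteins downstream of ITIMs, the place of each gene in the pathway was not checked. Of its 13 tested genes, 2 were called lower, with a median of -0.31. They were Fyb, the adaptor ADAP, with a log2 fold change of -1.36 (limma adjusted p = 0.0191), and the tyrosine phosphatase Ptpn22, with -0.86 (limma adjusted p = 0.0429). Fyb lost its call without Asic3-null replicate 1 or 2 or WT replicate 1 or 2, with a limma adjusted p of 0.0606, 0.0683, 0.0734 and 0.0732. Ptpn22 lost it whichever library was left out, with a limma adjusted p from 0.0758 to 0.137. The phosphatases that bind ITIMs directly were not called. Ptpn6 had 123, 142 and 161 RPKM against 178, 188 and 203 RPKM, without overlap (log2 fold change -0.43, limma adjusted p = 0.153). Inpp5d had 74.2, 49.7 and 68.6 RPKM against 64.8, 73.8 and 73.7 RPKM, with overlap (log2 fold change -0.16, limma adjusted p = 0.69).

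Of 7 tested ligands, Fn1, encoding fibronectin, a reported ligand of Lilrb4a, was called lower. It had 36.1, 22.6 and 22.5 RPKM against 217, 213 and 160 RPKM (log2 fold change -2.84, limma adjusted p = 0.00022). Cd47, the ligand of Sirpa, had 329, 352 and 374 RPKM against 325, 316 and 325 RPKM and was not called (log2 fold change 0.12, limma adjusted p = 0.61). The ratio of Cd47 to Sirpa was 6.85, 5.81 and 5.84 in the Asic3-null-labelled libraries and 3.57, 4.34 and 5.19 in the WT-labelled ones. The groups did not overlap in this ratio, but Sirpa itself overlapped and neither gene was called. Here too, 3 libraries against 3 cannot give a two-sided exact permutation p under 0.1. Pglyrp1, a ligand of Trem1 stored in neutrophil granules, had 136, 193 and 171 RPKM against 235, 273 and 227 RPKM and was not called (log2 fold change -0.56, limma adjusted p = 0.0983). H2-K1, H2-D1 and B2m, of the MHC class I that Pirb binds, had log2 fold changes of 0.21, 0.09 and 0.34 and were not called. Among 12 other Fc receptors, 2 were expressed enough to be tested and neither was called: Fcgrt, the neonatal Fc receptor, had 11.2, 5.80 and 10.5 RPKM against 21.9, 15.1 and 18.2 RPKM (log2 fold change -0.96, limma adjusted p = 0.0875), and Trim21, the cytosolic antibody receptor, had a log2 fold change of -0.47. Fcer1a, the IgE-binding chain that shares Fcer1g with the Fc gamma receptors on mast cells, was at 0 in all libraries.

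**Figure D5:**
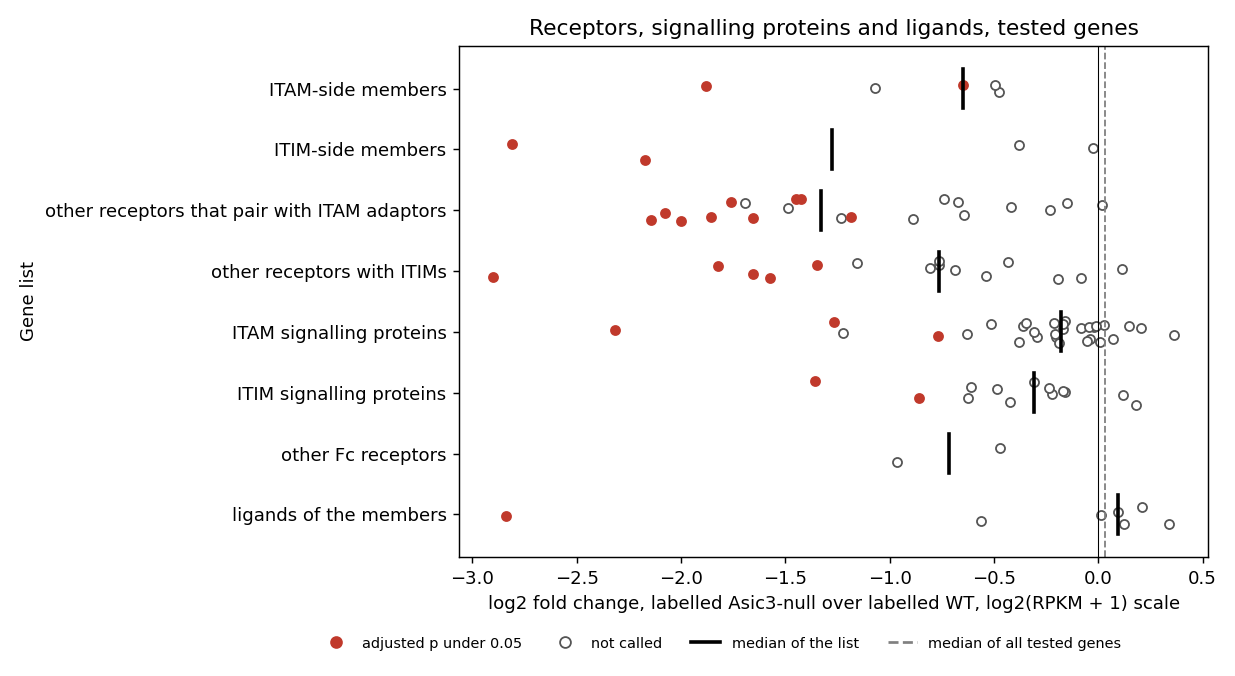
Log2 fold changes (labelled Asic3-null over labelled WT, log2(RPKM + 1) scale) of every tested gene in the 2 groups of members and in 6 lists, with called genes in red, a black bar at the median of each list and a dashed line at the median of all tested genes, 0.03. The medians are -1.33 and -0.76 for the receptor lists and -0.18 and -0.31 for the signalling lists. The ligands lie at 0.09 with Fn1 far to the left. Of the 35 tested receptors, 7 averaged under 1 RPKM in the Asic3-null-labelled libraries and met the minimum through the WT-labelled ones. This held for 0 of the 43 signalling genes, so the medians of the receptor lists are a description and support no direction.

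The promoters of Pirb and Fcgr4, which were called lower, and of Fcgr2b, which was not called, are printed for comparison. RefSeq (GRCm38.p6) gave promoters for 7 of the 10 members. Each line is the 250 bases before the start of transcription, 5′ to 3′ on the gene's strand: chr7:3720383-3720632 (minus) for Pirb, chr1:171018676-171018925 (plus) for Fcgr4 and chr1:170976072-170976321 (minus) for Fcgr2b. Capitals mark GAGGAA on either strand, the letters at the core of many sites of the myeloid ETS factor PU.1.
Pirb promoter: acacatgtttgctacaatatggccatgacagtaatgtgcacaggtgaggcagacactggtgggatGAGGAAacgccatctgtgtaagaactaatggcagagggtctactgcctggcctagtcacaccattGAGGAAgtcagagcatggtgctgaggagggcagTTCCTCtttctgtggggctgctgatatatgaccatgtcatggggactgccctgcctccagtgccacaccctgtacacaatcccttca
Fcgr4 promoter: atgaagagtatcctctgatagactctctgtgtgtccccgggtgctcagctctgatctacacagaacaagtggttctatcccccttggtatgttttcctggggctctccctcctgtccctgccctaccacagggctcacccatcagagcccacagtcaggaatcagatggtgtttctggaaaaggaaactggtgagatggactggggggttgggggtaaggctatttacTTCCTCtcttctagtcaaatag
Fcgr2b promoter: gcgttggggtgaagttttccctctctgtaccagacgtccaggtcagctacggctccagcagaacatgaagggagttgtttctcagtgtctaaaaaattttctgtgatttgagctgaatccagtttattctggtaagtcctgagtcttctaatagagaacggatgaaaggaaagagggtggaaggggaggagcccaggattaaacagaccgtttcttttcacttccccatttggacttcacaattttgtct

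Pirb held GAGGAA 3 times and Fcgr4 once, 22 bases before its start, while Fcgr2b did not hold it. In windows that run on to 50 bases after the start, it was also present in Fcgr1, Fcgr3 and Trem1, and not in Fcer1g, so both called and uncalled members held it. It occurred in 28.3% of the 32851 promoters of the same length. TTCNNNGAA, the letters bound by STAT factors, was present in Fcgr1 and Trem1 alone among the 7, and in 8.30% of all promoters. The motifs were counted separately, so that letters in an overlap counted for both. Tyrobp, Lilrb4a and Sirpa were not among the matched promoters.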

How the data were processed

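Total RNA of sorted LICs was sequenced in 3 WT-labelled and 3 Asic3-null-labelled libraries, without strand marks. Per the submitters, base calling used CASAVA 1.8.2 and alignment to GRCm38 used TopHat2 2.0.12. The values the authors deposited are RPKM per gene, that is, normalized to gene length and library size. The counting tool and annotation are not given in the sources used here. Whole reads within 0.0001 reads were recovered from the RPKM of all 16825 genes above 0.

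The 12037 genes whose mean RPKM reached 1 were fitted on the log2(RPKM + 1) scale by limma 3.58.1 (R 4.3.3), with an intensity trend, the genotype label as the only term and two-sided Benjamini-Hochberg adjustment over all of them. Fold changes on this scale understate the change of low genes. The steps were tested on simulated data. RefSeq (GRCm38.p6) named 25275 genes.

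The members and lists were chosen with earlier results of these data known. Named were all members, at most 5 called genes of each list by lowest p, and Syk, Lyn, Ptpn6, Inpp5d, Cd47, Pglyrp1 and Fcgrt. Close relatives of the members, sort and cell type markers, sex-linked genes and Asic3 were named too. H2-K1, H2-D1, B2m, Trim21 and Gm14548 were named after their values or matches were seen. A few genes under this rule are not reported here. Protein letters were not used here.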

Additional observations from a re-analysis of the deposited data

How the results depend on the processing

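The fits were repeated in 14 ways: with limma-voom on the recovered reads, without the intensity trend, after quantile normalization or median-ratio scaling, with all genes kept, with genes under a mean of 5 RPKM dropped, at a pseudocount of 0.1, with the replicate number as a block, and with each of 6 libraries left out. Pirb, Lilrb4a, Lilr4b, Fgr, Cd300lf and Fn1 were called in every one of them, Fcgr4 in 9 and Fcer1g in 7. Fcgr4 lost its call with no filter (limma adjusted p = 0.0681), and Fcer1g with no intensity trend (limma adjusted p = 0.0777). Tyrobp was called with quantile normalization only (limma adjusted p = 0.0491), and Fcgr3, Sirpa, Trem1 and Fcgr2b in none. The log2 fold change of Fcgr2b turned to 5.1e-05 under quantile normalization and ran from -0.070 to 0.014 with 1 library left out, turning positive when WT replicate 3 or Asic3-null replicate 3 was the library left out. That of Inpp5d ran from -0.27 to 0.013, turning positive without Asic3-null replicate 2. Dropping genes under a mean of 5 RPKM, 13 in place of 20 genes of the 6 pathway lists were called, with 9160 genes tested. limma-voom called 543 genes in all, 4 of them members, against 403. Leaving out 1 library gave 203 to 293 called genes, 2 to 4 called members and 8 to 18 called genes of the pathway lists, with fewer libraries in each fit. It gave a median log2 fold change from -0.72 to -0.59 on the ITAM side and from -1.49 to -1.09 on the ITIM side. The log2 ratio of activating to inhibitory Fc gamma receptors, -0.52, lay between -0.65 and -0.38, and was -0.45 for Fcgr3 over Fcgr2b alone.

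Libraries that share a replicate number did not visibly deviate together (correlations 0.0591, -0.0593 and -0.123, against -0.0727 to 0.141 for the other pairs). With 3 libraries in each group, this cannot settle whether the numbers pair them. With the replicate number as a block, 246 genes in all, 2 members (Pirb and Lilrb4a) and 10 genes of the pathway lists were called. Library sizes of 1947168 to 2381861 reads limit Fcgr1, Fcgr4, Trem1 and the PIR-A and Sirpb1 genes, which rest on few reads. Labelled genotype and sex cannot be told apart.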
